A study of Mus musculus with 12 samples.

Results

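The IFIT and OAS genes are antiviral genes that cells switch on in response to interferon, and 10 of them were followed here in differentiated neurospheres: Ifit1, Ifit2, Ifit3, Oas1a, Oas1b, Oas1g, Oas2, Oas3, Oasl1 and Oasl2. Every array probe whose RefSeq transcript belonged to one of these genes was taken, which gave 11 probes for 9 of the 10 genes, among 20887 genes named on the array. No probe could be named as Oas1b. Of the 9 genes, 7 had a probe that counted as expressed, which required that 1 condition of a comparison exceeded background clearly on 3 or more of its 4 arrays. Ifit1, Ifit2, Ifit3, Oas1a, Oas2, Oasl1 and Oasl2 were these 7, while Oas1g and Oas3 did not reach that level.

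Neurospheres are aggregates of neural progenitor cells, here from the telencephalon of embryos at day 13, grown with EGF and FGF2 and then differentiated for 7 days without these factors. WT neurospheres came from wild-type C57BL/6 embryos and were untreated. APP_WT neurospheres came from embryos with the transgenes APPswe and PS1dE9, which encode a chimeric mouse and human amyloid precursor protein with the Swedish mutation and a mutated human presenilin and are driven by a prion protein promoter, and they were untreated as well. BK_APP and HOE_APP neurospheres carried the same transgenes and received bradykinin (BK), an agonist of the B2 kinin receptor, or its peptide antagonist HOE-140, each dosed at 1 µM when differentiation began (day 0) and again on days 3 and 6. RNA came from day 7. The pairs APP_WT with WT, BK_APP with APP_WT, and HOE_APP with APP_WT were each hybridized to 4 2-color arrays, 12 in all, with the dyes swapped on 2 of every 4. The labels of the HOE_APP arrays name the same treatment for both channels, so the direction of all HOE_APP values, taken from the first channel, the titles and the swapped layout, is likely only. The log2 ratios that the authors deposited have the direction used here on all 4 HOE_APP arrays, while the labels remain in conflict. If the other channel were right, every ratio of HOE_APP versus APP_WT below would have the opposite sign.

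IFIT proteins bind foreign RNA and hold back its translation. Ifit1 recognizes RNA that lacks the methylated cap of the host, Ifit3 associates with other members of the family, and Ifit2 restricts viruses in the brain. OAS proteins sense double-stranded RNA and make oligoadenylates as messengers of an antiviral response. OASL proteins carry ubiquitin-like domains, and of the mouse pair Oasl2 has kept the synthase activity while Oasl1 has lost it and holds back the production of interferon through Irf7. Interferon acts on these genes through a complex that contains Stat2 and Irf9 and binds a promoter element called ISRE, and neurons, astrocytes and microglia can all respond in this way.

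The promoter windows of the genes are shown first because the core of this element can be read in some of them. Of the 10 genes, 8 had a window in RefSeq (build GRCm38.p6, 250 bases before to 50 after the annotated start), and a search on both strands for the core of the element, GAAA followed by any 2 bases and GAAA again, found it in the windows of 5 of them, Ifit1, Ifit3, Oas1a, Oas1g and Oas3. It occurred in 3.44% of all 32851 windows. At least 2 matches stood in the windows of 4 of the genes and in 0.225% of all windows. The bases before the start follow, with the matches in capitals (on the other strand the core reads TTTC, any 2 bases, TTTC): Ifit1 at chr19:34640639-34640888 and Ifit3 at chr19:34583279-34583528 on the plus strand, Oas1a at chr5:120907526-120907775, Oas1g at chr5:120887614-120887863 and Oas3 at chr5:120777660-120777909 on the minus strand, and Oasl2 at chr5:114896684-114896933 on the plus strand, shown as a window without a match.
Ifit1: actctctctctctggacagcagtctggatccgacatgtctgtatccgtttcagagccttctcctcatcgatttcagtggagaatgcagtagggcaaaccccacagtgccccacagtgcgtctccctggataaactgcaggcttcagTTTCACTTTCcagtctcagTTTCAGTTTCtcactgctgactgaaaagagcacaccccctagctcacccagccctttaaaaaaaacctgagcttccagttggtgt
Ifit3: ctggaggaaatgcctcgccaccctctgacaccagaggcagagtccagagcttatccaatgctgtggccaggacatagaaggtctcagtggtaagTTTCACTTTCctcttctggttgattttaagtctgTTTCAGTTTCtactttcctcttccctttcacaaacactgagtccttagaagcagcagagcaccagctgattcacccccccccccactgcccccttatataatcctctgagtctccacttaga
Oas1a: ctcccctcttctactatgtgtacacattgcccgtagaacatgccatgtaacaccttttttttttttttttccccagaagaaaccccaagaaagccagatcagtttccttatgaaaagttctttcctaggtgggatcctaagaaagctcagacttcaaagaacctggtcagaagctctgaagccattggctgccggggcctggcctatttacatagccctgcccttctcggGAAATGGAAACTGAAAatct
Oas1g: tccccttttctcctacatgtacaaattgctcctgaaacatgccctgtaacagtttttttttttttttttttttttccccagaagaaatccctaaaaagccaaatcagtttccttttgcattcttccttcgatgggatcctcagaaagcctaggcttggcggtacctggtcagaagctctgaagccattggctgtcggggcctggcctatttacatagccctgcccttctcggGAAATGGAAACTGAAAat
Oas3: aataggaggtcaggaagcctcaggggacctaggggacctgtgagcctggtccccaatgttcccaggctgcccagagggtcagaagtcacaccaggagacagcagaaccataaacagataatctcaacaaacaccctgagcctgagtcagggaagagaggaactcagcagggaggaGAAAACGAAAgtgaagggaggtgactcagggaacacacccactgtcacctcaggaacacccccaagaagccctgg
Oasl2: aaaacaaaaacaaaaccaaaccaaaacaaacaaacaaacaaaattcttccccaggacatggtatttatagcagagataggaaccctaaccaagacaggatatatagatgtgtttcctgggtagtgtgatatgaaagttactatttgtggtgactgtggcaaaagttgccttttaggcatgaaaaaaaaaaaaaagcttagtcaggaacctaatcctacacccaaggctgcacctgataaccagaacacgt

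Ifit1 and Ifit3, which are neighbors on chromosome 19, held the same pair of matches in the same order, TTTCACTTTC and TTTCAGTTTC. Their first bases lay at −104 and −85 in Ifit1 and at −156 and −122 in Ifit3, counted back from the start. Oas1a and Oas1g shared the run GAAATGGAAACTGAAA, in which 2 matches overlap, at −20 and −18, and their stretches before the start were identical at 83.1% of the aligned positions, against 47.3% to 55.4% for all other pairs of members. Oas3 had 1 match at −75. No window of Ifit2, Oasl1 or Oasl2 held this core, and the core of the interferon-gamma element (GAS), TTC followed by any 3 bases and GAA, found in 8.3% of all windows, occurred in Ifit2 and Oas1a only. These matches are descriptions of a fixed window, and binding was not measured. Both Oas1a and Oas1g, and likewise Ifit3 and its close copy Ifit3b, are similar in sequence, so that their probes may also bind RNA of the copy.

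**Figure D1:**
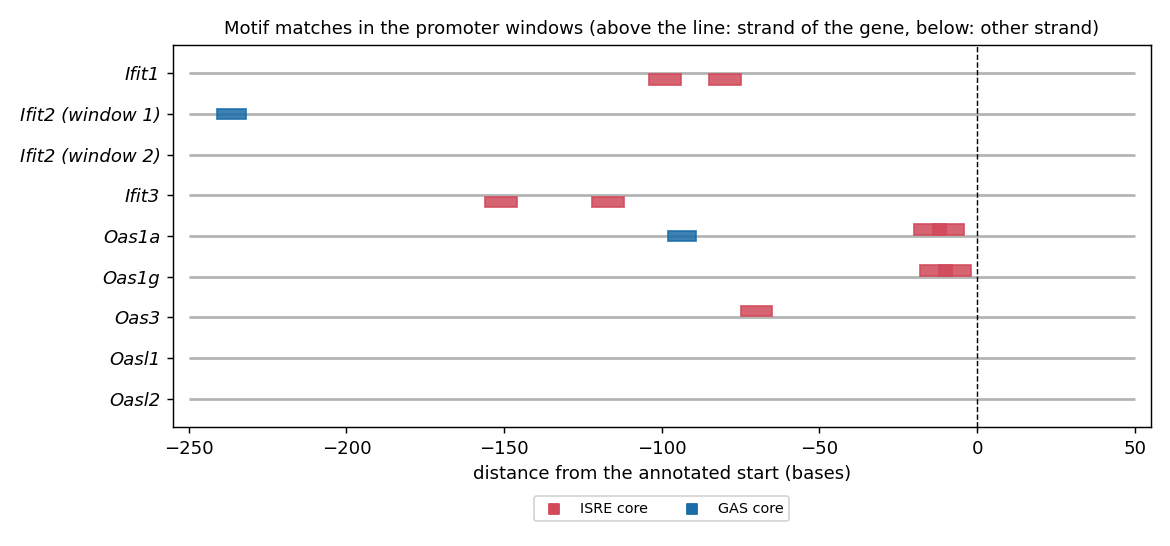
Matches of the ISRE core (red) and of the palindromic GAS core (blue, on the line) in the 9 RefSeq promoter windows of 8 IFIT and OAS genes, plotted by distance from the annotated start in bases. Ifit1 and Ifit3 each hold a pair of ISRE cores, Oas1a and Oas1g an overlapping pair next to the start, and Oasl1 and Oasl2 none.

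APP_WT neurospheres had more RNA of all 7 expressed genes than WT, with a limma adjusted p below 0.05, against 11.6% of all 29361 expressed probes that passed in this direction. Their ratios were above 0 on all 4 arrays, as were those of 15.1% of the probes, and SAM with rank products also called 7 of 7 and 7.65% of the probes as higher. Only 3 of the 7, Ifit2, Ifit3 and Oasl2, exceeded the background clearly in each WT channel. Oasl1 was so on 1 array, and Ifit1, Oas1a and Oas2 on 0, so these genes passed the expression filter through the transgenic channels alone. A count over genes that entered in this way describes them and carries no further weight. For a gene well above background on all 4 arrays in APP_WT and on 0 in WT, the fold is a lower limit. It was formed from the mean APP_WT level and the WT level or the lowest level measurable on that array, whichever was higher. This limit leaves out the spread between arrays. A probe not above background in every APP_WT channel has no such limit.

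Oasl2 had the largest log2 ratios of the 7 genes in this normalization, though not in the scanner's own log ratios. The 4 arrays gave log2 ratios of 2.78, 3.09, 2.78 and 3.53 for APP_WT over WT. In every array the APP_WT channel was far brighter, and the fitted difference was 3.05 ± 0.16 (SE) on the log2 scale, or 8.27-fold (limma adjusted p = 5.33e-07). On the log2 scale of channel levels, WT lay between 7.04 and 7.28 and the 12 hybridizations of untreated APP_WT RNA between 9.497 and 10.78.

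Among the IFIT genes, Ifit1 had ratios of 1.82, 1.80, 1.82 and 2.21. It was well above background on 4 of 4 arrays in APP_WT and on 0 in WT, so that it was at least 3.76-fold higher (limma adjusted p = 1.7e-07). Ifit3 was measured in both conditions on all arrays, with ratios of 1.56, 1.70, 1.79 and 1.92, and rose 3.35-fold (log2 1.74 ± 0.078, limma adjusted p = 2.56e-07). Ifit2 changed least of the 3, with ratios of 0.48, 0.46, 0.27 and 0.59, which is 1.37-fold (log2 0.45 ± 0.074, limma adjusted p = 0.00172). Ifit2 was measured in WT on every array, at 7.61 ± 0.19 (SD, n = 4) on the log2 scale, and its WT values, 7.39 to 7.81, lay just below the APP_WT values, 7.85 to 8.31.

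The other OAS and OASL genes were dimmer than Oasl2. Oas1a, which makes oligoadenylates, had ratios of 1.00, 1.07, 1.15 and 1.40 with its brighter probe and was at least 2.22-fold higher in APP_WT (limma adjusted p = 3.86e-06). Its other probe gave −0.030, 0.23, 0.40 and 0.78 and was above background on 1 array in APP_WT and 0 in WT. This probe passed more narrowly, with a fitted log2 difference of 0.35 (95% interval 0.109 to 0.585, limma adjusted p = 0.0472) and no lower limit. The 2 probes thus had the same direction on average but not the same size. Oas2, the middle-sized synthase, had ratios of 0.19, 0.39, 0.62 and 0.93. It was above background on 2 arrays in APP_WT and 0 in WT. Its fitted difference, 0.53 on the log2 scale (95% interval 0.338 to 0.728, limma adjusted p = 0.00183), therefore gives no lower limit. Arrays 1 and 2, with APP_WT in Cy3, gave the lower Oas2 ratios and arrays 3 and 4, with APP_WT in Cy5, the higher ones. Oasl1, the family member without synthase activity, had ratios of 0.75, 0.90, 0.72 and 0.89 and rose by 0.81 ± 0.081 on the log2 scale (limma adjusted p = 6.42e-05). Since it was above background in WT on 1 of 4 arrays only, this difference, 1.76-fold, rests mostly on WT signals near background, and the scanner's log ratios gave 5.35-fold.

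Oas3 and Oas1g did not count as expressed. The Oas3 probe was above background in 0 of 24 channels, and its log2 levels ran from 6.08 to 6.15 in WT and from 6.08 to 6.34 in APP_WT. One Oas1g probe was above background in 2 of the 4 APP_WT channels of the arrays with WT, where its ratios were −0.043, 0.73, 0.059 and 0.060, and in no other channel. The second Oas1g probe was above background in 2 channels, both on array 4 of HOE_APP versus APP_WT. Such values bound the level of these genes and do not show that they were absent.

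The size of these folds depends on how background is handled, since the offset of 50 added before taking logs lowers the fold of dim probes. From the scanner software's own log ratios, all 7 genes also passed the limma threshold, but Ifit1 gave 4.13, Oas1a 3.51, Oas2 2.00, Oasl1 2.42 and Oasl2 3.83 on the log2 scale, so that Ifit1 and not Oasl2 came first. Ifit3, at 1.84, and Ifit2, at 0.49, barely moved.

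**Figure D2:**
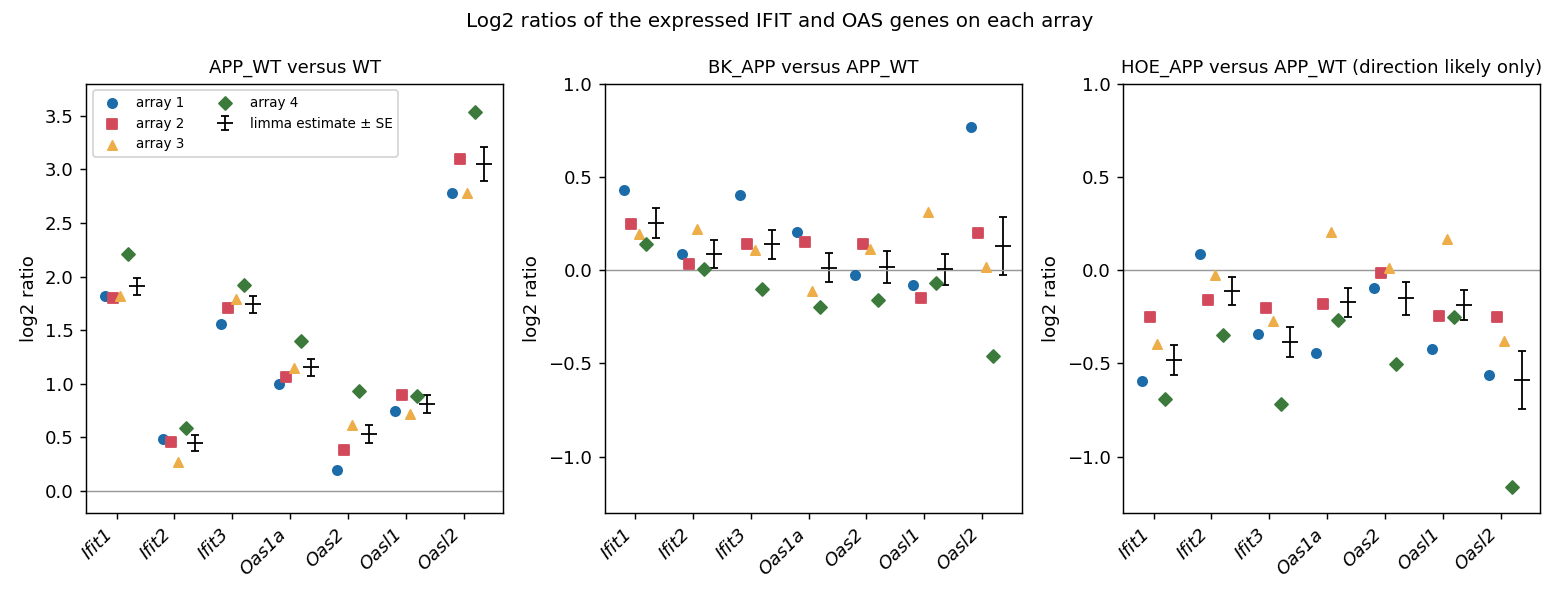
Log2 ratios of the 7 expressed IFIT and OAS genes on each of the 4 arrays of the 3 comparisons (colored symbols), with the limma estimate and its SE (black). All ratios for APP_WT versus WT lie above 0, from 0.19 to 3.53, while those of the treated neurospheres, drawn on a narrower axis, lie between −1.16 and 0.77.

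BK treatment was compared with untreated APP_WT neurospheres to ask whether the B2 agonist moves these genes further. With limma, 0 of the 7 genes passed the adjusted threshold (0% of all probes), 1 had an unadjusted p below 0.05, as had 2.1% of the probes in this direction, and SAM with rank products at unadjusted p values called the same 1 gene and 1.16% of the probes as higher. This gene was Ifit1, and without array 1 of BK_APP 0 genes had such a p. Its ratios were 0.43, 0.25, 0.20 and 0.14, all above 0, with a mean of 0.25 ± 0.080 (SE), or 1.19-fold (limma adjusted p = 0.967). Ifit2 was the other gene with 4 ratios above 0, from 0.0071 to 0.22, against 5.1% of all probes, but its 95% interval, −0.076 to 0.25, included 0.

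The other genes had arrays on both sides of 0. Oasl2 varied most, with ratios of 0.77, 0.20, 0.014 and −0.46, and its mean, 0.13 ± 0.16, was smaller than its SE. Ifit3 gave 0.40, 0.14, 0.11 and −0.10 (mean 0.14 ± 0.078). In both genes array 1 was the highest and array 4 the lowest. Oas1a (0.013), Oas2 (0.016) and Oasl1 (0.0033) had means close to 0, with 95% intervals that reached from −0.18 to at most 0.21. The dimmer Oas1a probe gave 0.29 ± 0.11 (limma adjusted p = 0.967), which its brighter probe did not share. The dimmer probe counted as expressed through BK_APP alone, above background there on 3 of 4 arrays and on 2 in the paired APP_WT. Its higher value in BK_APP therefore carries no weight.

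HOE-140 treatment was compared with the same untreated neurospheres to ask what blocking the B2 receptor does. With limma, again 0 of the 7 genes passed the adjusted threshold (0% of all probes). An unadjusted p below 0.05 with a lower level was found for 4 genes and for 2.72% of all probes, and SAM with rank products called 3 genes and 1.52% of the probes as lower. These 3 genes, Ifit1, Ifit3 and Oasl2, were also those with all 4 ratios below 0, as had 5% of all probes. The 4 genes were 7 without array 3 of HOE_APP and 3 without array 1 or array 4. All directions in this comparison are likely only.

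Ifit1 gave −0.59, −0.25, −0.40 and −0.69 in HOE_APP over APP_WT. Every array was below 0, with a mean of −0.48 ± 0.080, or 0.715 of the untreated level (limma adjusted p = 0.924). Ifit3 gave −0.34, −0.21, −0.27 and −0.72, with a mean of −0.38 ± 0.078 (limma adjusted p = 0.924). Oasl2 gave −0.56, −0.25, −0.38 and −1.16, with a mean of −0.59 ± 0.16, or 0.665 of the untreated level (limma adjusted p = 0.924). In all 3 genes array 4 was the lowest and array 2 the nearest to 0.

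Oasl1 was the fourth gene below the unadjusted threshold, with a mean of −0.19 ± 0.081 (limma adjusted p = 0.924), but array 3 stood at 0.17 against −0.42, −0.25 and −0.25 on the others. Oas1a gave −0.45, −0.18, 0.20 and −0.27, with array 3 again above 0 (mean −0.17 ± 0.078, 95% interval −0.345 to 0.000208). Oas2 lay within 0.1 of 0 on 3 arrays and at −0.50 on array 4, and Ifit2 ran from −0.35 to 0.084. The means of these genes were −0.15 and −0.11, and their 95% intervals included 0.

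BK_APP and HOE_APP were given at the same dose and on the same days, so the difference between the treatments could be tested in the model. With limma, 0 of the 7 genes passed the adjusted threshold (0% of all probes), while 3 had an unadjusted p below 0.05 with the higher level in BK_APP, as had 1.2% of the probes. These 3 were 6 with the replicate number as a fixed block and 7 without array 3 of HOE_APP. Ifit1 differed by 0.74 on the log2 scale (95% interval 0.49 to 0.99, limma adjusted p = 1), with array pairs of the same number at 1.02, 0.50, 0.59 and 0.83. Oasl2 differed by 0.72 (0.23 to 1.21, limma adjusted p = 1), and Ifit3 by 0.52 (0.28 to 0.77, limma adjusted p = 1). These are 1.67-fold, 1.65-fold and 1.44-fold. For Ifit2, Oas1a, Oas2 and Oasl1 the differences were 0.17 to 0.20, with intervals from at lowest −0.11 to at highest 0.45. With the signs of the HOE_APP arrays turned, these differences become −0.23 for Ifit1, −0.46 for Oasl2 and −0.25 for Ifit3.

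Channel levels put the conditions side by side. In all 7 genes the 4 WT values lay below every value of the other conditions, as in 4.29% of all expressed probes. With the 12 APP_WT hybridizations pooled over both slides, the mean levels were ordered WT, HOE_APP, APP_WT and BK_APP in all 7, as in 6.63%. For Ifit1 these means were 6.39 ± 0.27 in WT, 8.06 ± 0.29 in HOE_APP, 8.45 ± 0.27 in APP_WT and 8.74 ± 0.12 in BK_APP (SD, n = 4, with 12 hybridizations for APP_WT). For Oasl2 they were 7.19 ± 0.11, 9.63 ± 0.40, 10.20 ± 0.42 and 10.27 ± 0.19. For Ifit3 they were 9.12 ± 0.21, 10.60 ± 0.28, 10.97 ± 0.25 and 11.20 ± 0.15. The transgenic conditions next to each other in this order overlapped in their values, while WT stood apart. WT was hybridized on another slide than the treated neurospheres, levels carry differences between arrays and slides that ratios do not, and the order of HOE_APP and APP_WT rests on the likely direction. On the HOE_APP arrays alone, mean APP_WT levels were 8.218 for Ifit2, 7.459 for Oas1a, 7.01 for Oas2 and 7.496 for Oasl1. These lay above the BK_APP means of 8.204, 7.4, 6.95 and 7.473. For these genes the order of APP_WT and BK_APP thus depends on the arrays taken.

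**Figure D3:**
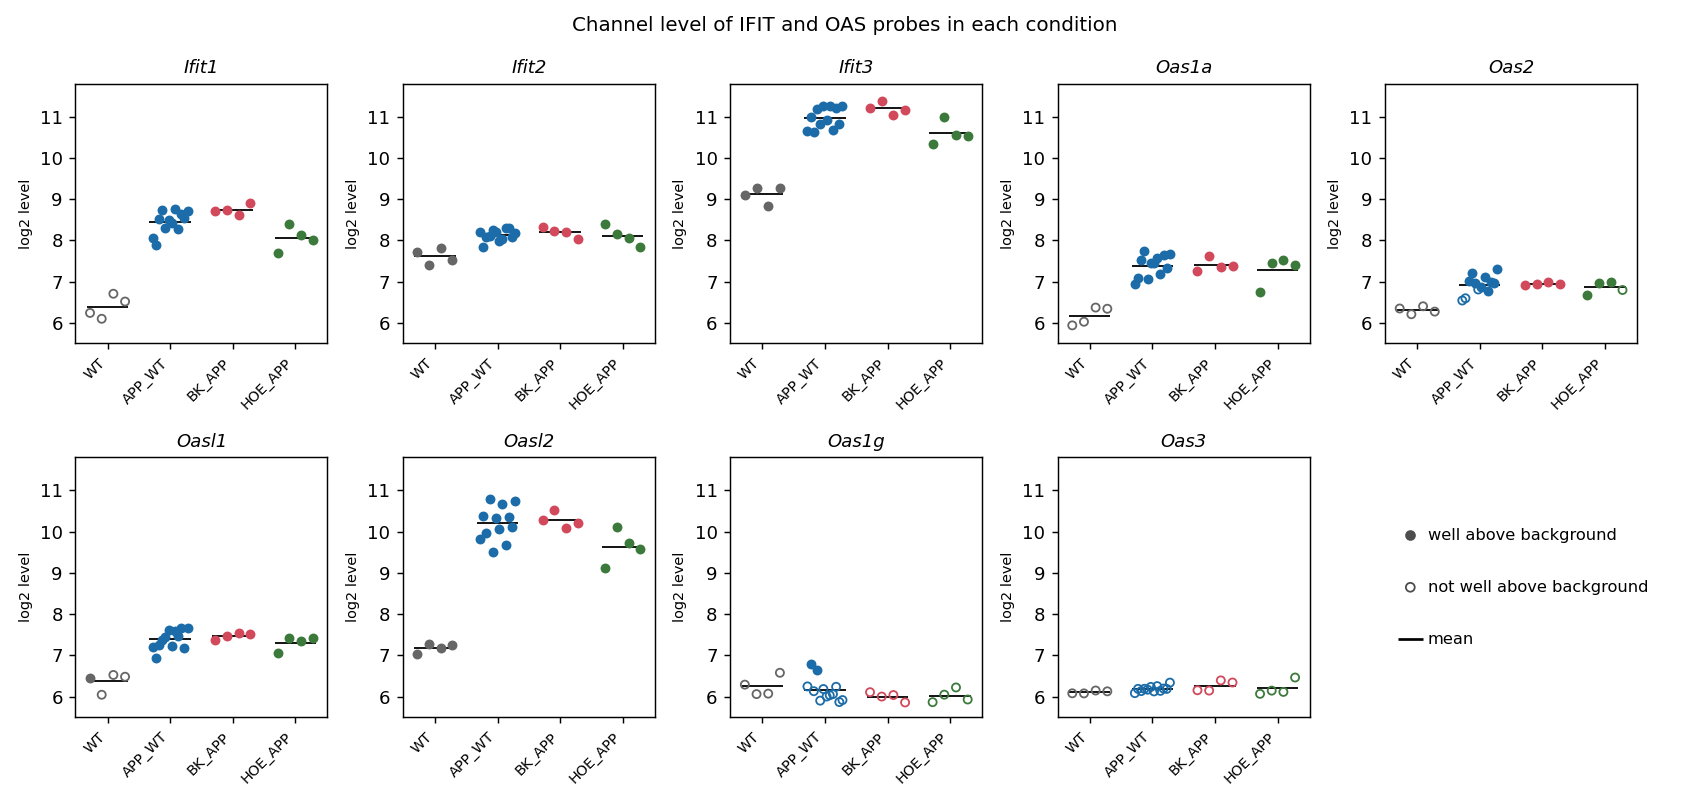
Log2 channel levels of 9 IFIT and OAS genes in WT (4 values), APP_WT (12), BK_APP (4) and HOE_APP (4), with filled symbols for values well above background, open symbols for the others and a line at the mean (Oas1a and Oas1g with 1 probe each). WT stands below the other conditions for the 7 expressed genes, and Oas3 is open in all 24 channels.

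Array 4 was often the extreme for these genes. It had the highest ratio for 6 of the 7 in APP_WT versus WT, the lowest for 6 of 7 in BK_APP versus APP_WT and the lowest for 5 of 7 in HOE_APP versus APP_WT. The share of all probes with such extremes was not counted. This was not particular to the 7 genes. The median of 24 other interferon-stimulated genes was also highest on array 4 in APP_WT versus WT (1.81), and lowest there in BK_APP (−0.086) and HOE_APP (−0.468). The medians over the 7 genes on arrays 1 to 4 were 0.21, 0.14, 0.11 and −0.10 for BK_APP and −0.42, −0.21, −0.024 and −0.50 for HOE_APP. Both treated RNAs were compared with untreated APP_WT RNA, so both comparisons share it as control. Whether arrays of one number share that RNA is not in the labels and was not tested. Arrays of one number in APP_WT versus WT and in either treated comparison deviated in opposite directions over the expressed probes (r = −0.601 to −0.301). They also have opposite dye orientations, and with the dye effect removed r was −0.507 to −0.206.

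The median log2 difference of the 7 genes was 1.15 in APP_WT versus WT, 0.087 in BK_APP versus APP_WT and −0.19 in HOE_APP versus APP_WT, beside medians over all expressed probes of 0.0039, −0.0046 and 0.00023. For BK_APP the median was 0.0125 without array 3 and 0.141 without array 4, and for HOE_APP it was −0.0831 without array 4 and −0.294 without array 3. These are descriptions without a test.

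Related genes outside the 10 were followed as lists, and the counts that rose in APP_WT versus WT below stand against the 11.6% of all probes. Of the other IFIT genes with expressed probes, Ifit3b, the close copy of Ifit3, was higher in APP_WT (1.58 ± 0.11 on the log2 scale, limma adjusted p = 5.06e-06), and 1 of 2 passed. Of the other OAS1 genes 2 of 3 rose, Oas1f (limma adjusted p = 0.000428) and Oas1c (limma adjusted p = 0.000423). They were above background on 0 and 1 of the 4 WT arrays, so their measured differences carry no exact fold. The kinase Eif2ak2, another sensor of double-stranded RNA, was higher (0.68 ± 0.077, limma adjusted p = 0.000156).

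Upstream, most interferon genes were not seen. Of 21 ligand genes 16 had a probe and 5 were expressed, without Ifnb1, and 1 passed. It was Ifng, which was higher by 0.36 ± 0.081 (limma adjusted p = 0.0104) but above background on only 2 of 4 arrays in either condition. Of 11 expressed receptor and signaling genes 6 rose and 1, Jak2, fell, and among those that rose were Irf9 (0.60 ± 0.049) and Stat2 (0.46 ± 0.057), which act in the complex that binds the ISRE. Of 6 interferon regulatory factors 5 rose, with Irf1 (1.25 ± 0.096) and Irf8 (0.94 ± 0.063) as the largest. Of 14 nucleic acid sensors and adaptors 8 rose and 0 fell, led by Ddx58, which encodes RIG-I (1.05 ± 0.051), and Ifih1, which encodes MDA5 (1.00 ± 0.12). Of 6 feedback inhibitors 4 rose, among them Isg15 (2.29 ± 0.11) and Usp18, which removes Isg15 from proteins (1.44 ± 0.14, above background in WT on 2 of 4 arrays).

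Of 24 other interferon-stimulated genes that were expressed, 24 rose, with a median of 1.54, of which 5 were above background on 0 WT arrays. Among the 13 measured on all 4 WT arrays were the chemokine Cxcl10 (4.50 ± 0.12) and Rtp4 (3.12 ± 0.13). In BK_APP and HOE_APP versus APP_WT no gene of any of these lists passed the adjusted limma threshold. Of the 24 genes 4 had an unadjusted p below 0.05 and a higher level in BK_APP (2.1% of all probes), with a median over the list of 0.14, and 16 had one with a lower level in HOE_APP (2.72% of all probes), with a median of −0.22.

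Of the lists of cell type markers, the microglial one had the largest median in APP_WT versus WT. The medians of the neuronal, oligodendrocyte, progenitor, and endothelial and mural markers were 0.063, 0.058, −0.14 and 0.039. Of 20 microglial markers 19 had a probe and 18 were expressed, of which 16 rose and 1 fell in APP_WT versus WT, with a median of 1.49. P2ry12 was not expressed. Of the 19, between 17 and 19 were above background in the APP_WT channels and between 9 and 15 in the WT channels, and the log2 of their summed level was 14.00 to 14.34 in APP_WT and 13.44 to 13.69 in WT. Among those that rose were Ctss (2.52 ± 0.086) and Cx3cr1 (2.31 ± 0.068), which were above background in WT on 1 and 2 of 4 arrays, so that these sizes and the median rest in part on WT signals near background. Their part in the IFIT and OAS differences was not tested. In bulk RNA a change in the number of cells of one type and a change in the RNA per cell cannot be told apart.

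Of the peripheral myeloid markers 1 of 7 was expressed, Pf4, and it rose. Of 8 astrocyte markers 7 rose with a median of 0.37, of 8 neuronal markers 3 rose and 2 fell, and of 8 oligodendrocyte markers 1 rose and 1 fell. Of 6 progenitor markers 2 rose and 2 fell, and of 3 expressed endothelial and mural markers 1 fell. All 8 astrocyte and all 8 oligodendrocyte markers were above background in every channel, and of the 8 neuronal markers 7 or 8 were. Across the treated arrays the microglial medians were 0.21, 0.13, 0.17 and −0.0034 for BK_APP and −0.18, −0.085, −0.014 and −0.11 for HOE_APP. On the same arrays the IFIT and OAS medians were 0.21, 0.14, 0.11 and −0.10 for BK_APP and −0.42, −0.21, −0.024 and −0.50 for HOE_APP.

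**Figure D4:**
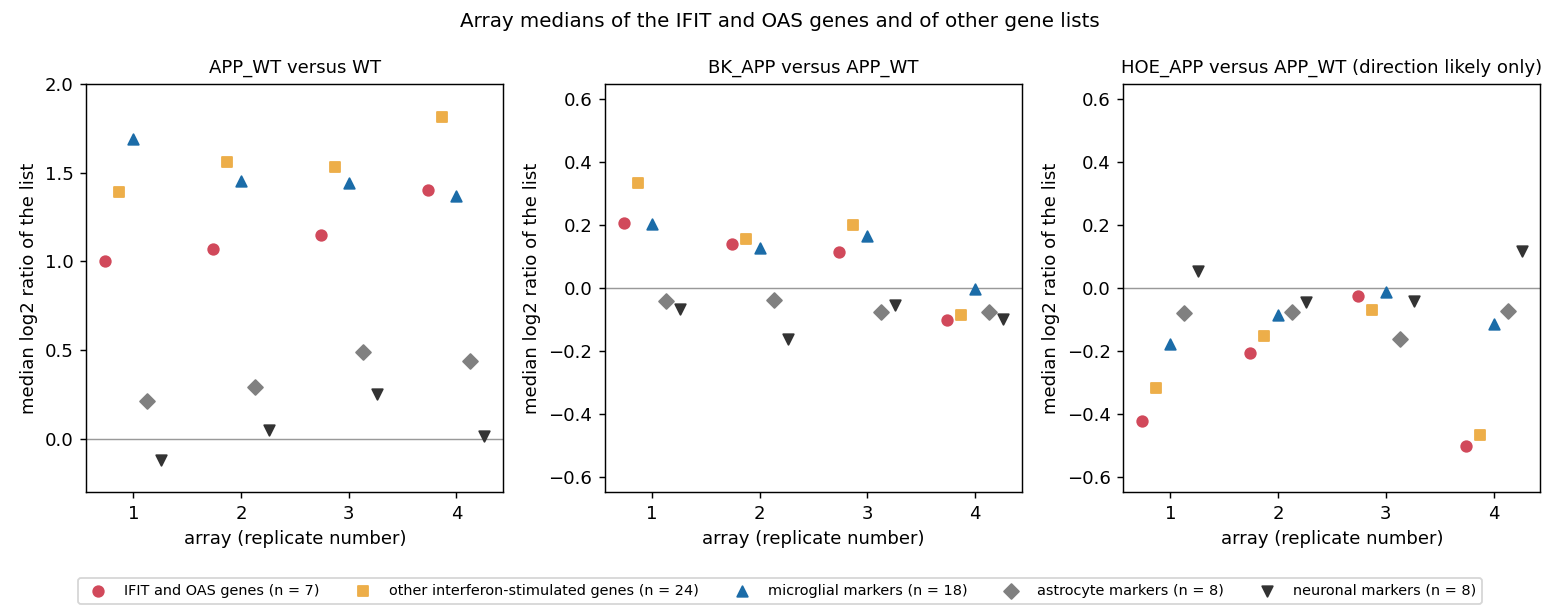
Median log2 ratio of the 7 expressed IFIT and OAS genes and of 4 gene lists on each array of the 3 comparisons. In APP_WT versus WT the antiviral, interferon-stimulated and microglial medians all lie at 1.00 or above, those of neuronal and astrocyte markers below 0.5, and on array 4 of HOE_APP versus APP_WT the antiviral and interferon-stimulated medians lie at −0.50 and −0.47.

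The genes whose log2 ratios were most like the mean of the IFIT genes over the 12 arrays were Acod1, Ifit3b, Isg15, Bst2 and Parp14 (Pearson r from 0.990 to 0.992), and for the OAS and OASL genes Bst2, Ifi27, Gbp2, Ccl4 and Psmb8 (0.993 to 0.998). Over 12 arrays these values mostly reflect the gap between WT and the rest. Over the 8 arrays of treated neurospheres the nearest were Parp14, B2m, Tbc1d1, Ifit3b and Jam2 for the IFIT genes (0.948 to 0.955), and Cmpk2, Ccl4, Cd52, Bst2 and Ifi27 for the OAS and OASL genes (0.969 to 0.983). Within the families over these 8 arrays, Ifit3 ran closest with Oasl2 (r = 0.971) and with Ifit1 (0.942), while Oasl1 and Oasl2 had an r of 0.319. These are descriptions, since the arrays share untreated APP_WT RNA as the comparison sample and the same pair of dyes.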

How the data were processed

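Two-color Agilent arrays were read from the scanner output that the authors deposited, which gives the median intensity of each spot and its local background in both channels, without normalization, and flags for spots above background (Feature Extraction 11.0.1.1 per the file headers). The authors also deposited the software's log10 ratio of processed signals and a table of log2 ratios, which served as alternatives. From the median intensities, background was corrected by normexp (offset 50), ratios were normalized by loess (span 0.3), and, without the 3671 control spots among 62976, the mean per probe was taken for 55681 probes. Single-channel levels came from loess and Aquantile scaling. A RefSeq gene table gave symbols for 27509 of the 29150 probes that carry RefSeq transcript identifiers.

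A single limma model (limma 3.58.1, R 4.3.3) covered the 12 arrays and estimated, per comparison, the average ratio and a dye effect. Tests were two-sided, with Benjamini-Hochberg adjustment over 29361 expressed probes and a threshold of 0.05. Intervals of 95% used the moderated degrees of freedom. A gene was represented by its expressed probe of highest mean intensity. The study's own tests, SAM and rank products, were rewritten with 100 permutations and called a probe where both gave an unadjusted p of at most 0.05. Scripts were tested on simulated data.

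Log2 ratios correlated at 0.244 to 0.610 between arrays of a comparison with the same dye orientation. Between opposite orientations the correlation was 0.244 to 0.465 for APP_WT versus WT but −0.323 to −0.113 for BK_APP and −0.320 to −0.189 for HOE_APP. Arrays of the same number in the BK_APP and HOE_APP comparisons deviated together (r = 0.516 to 0.675), but they also share the dye orientation. With the dye effect removed, r was 0.423 to 0.432. The numbers may thus be paired, and the main model treated the arrays as independent. The number of arrays, 4 per comparison, limits precision. The study describes 4 independent biological replicates per model, but neither it nor the labels say whether these came from separate embryos. The p-values thus measure the spread between these samples. The arrays of APP_WT versus WT lay on 1 slide and the other 8 on another, and slide and comparison cannot be told apart. The genes, lists and tests were chosen with earlier results of these data known. The named genes were all members, at most 4 genes per list past the threshold by size of difference, and the 5 nearest genes by Pearson r. Some genes of the lists are not reported here. Alternatives were other background, normalization, filter, dye, block, test and array choices.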

Additional observations from a re-analysis of the deposited data

Results flagged for a closer look

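In 2 of 21 sets of 4 arrays (7 genes in 3 comparisons), 1 array lay far from the other 3, by a gap that made up most of the range, and chance alone gives this in about 1 of 20 sets. Ifit1 in APP_WT versus WT had 1.80 to 1.82 on arrays 1 to 3 and 2.21 on array 4, a gap of 0.942 of the range. Oasl1 in BK_APP versus APP_WT had −0.15 to −0.070 on arrays 1, 2 and 4 and 0.31 on array 3, a gap of 0.832 of the range.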

How the results depend on the processing

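In APP_WT versus WT all expressed IFIT and OAS genes stayed above 0 and below the adjusted limma threshold under every alternative that tested them. Their number was 7 in the fit and 7 when any array was left out, and it was 3 when both channels had to be above background on all 12 arrays, which tested 3. The deposited table tested and called 6. BK_APP and HOE_APP versus APP_WT and their difference gave 0 adjusted calls under every limma alternative and with any array left out, while SAM and rank products at unadjusted p values called 1 gene for BK_APP and 3 for HOE_APP. With the replicate number as a random block (consensus correlation −0.15) the counts were 7, 0, 0 and 0, and as a fixed block BK_APP minus HOE_APP gave 0 adjusted calls, with Ifit1 at 0.737 (limma adjusted p = 0.16). The block changed no adjusted call, but the fixed block raised the genes with an unadjusted p below 0.05 in BK_APP minus HOE_APP from 3 to 6. The median of the genes in APP_WT versus WT, 1.15, was 1.72 with an offset of 16, 2.42 from the scanner log ratios, 2.96 from the deposited table, 1.74 for the genes above background in both channels, and 0.813 without a filter on dim probes and with the other Oas1a probe, an alternative added after seeing the data. The median of BK_APP minus HOE_APP, 0.198, was 0.543 from the scanner log ratios, 0.508 from the deposited table, 0.523 with both channels above background, 0.454 with the other Oas1a probe, and between 0.117 (without array 4 of HOE_APP) and 0.304 (without its array 3). That of HOE_APP versus APP_WT, −0.188, was −0.319, −0.345 and −0.385 under the first 3 of these, and that of BK_APP versus APP_WT, 0.0869, was 0.145 and 0.144 under the first 2, 0.131 under the others, 0.133 with median centering, and between 0.0125 and 0.141 without 1 array. The other Oas1a probe counted as expressed through BK_APP alone, so the medians with it carry no further weight.

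Signs turned in BK_APP versus APP_WT when 1 array was left out, from −0.0123 to 0.274 for Oasl2, from −0.00827 to 0.0347 for Oas1a, from −0.0524 to 0.0853 for Oas2 and from −0.092 to 0.0987 for Oasl1. With the signs of the HOE_APP arrays turned, HOE_APP versus APP_WT gave 0.484 for Ifit1, 0.111 for Ifit2, 0.385 for Ifit3, 0.173 for Oas1a, 0.15 for Oas2, 0.188 for Oasl1 and 0.588 for Oasl2, and BK_APP minus HOE_APP gave −0.231, −0.0239, −0.247, −0.159, −0.134, −0.185 and −0.458 in the same order. Over all probes the calls in APP_WT versus WT numbered 5446, of which 3392 higher, and 2371 with that comparison fitted alone, and 3530 with SAM and rank products. Of 5863 calls with median centering 2136 were higher, as were 2684 of 7832 from the scanner log ratios. Dim WT signals limit Ifit1, Oas1a, Oas2 and Oasl1, and dim signals throughout limit Oas1g and Oas3.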

Other observations

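The ISRE core occurred in the promoter window of 10 of 24 other interferon-stimulated genes with a window (41.7%), of 11 of 20 interferon genes (55%) and of 2 of 14 microglial markers (14.3%), beside 3.44% of all windows. Oasl2, at a log2 difference of 3.05, had no match in its window, and Oas3, with a match, was above background in 0 of 24 channels.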
